A study of Mus musculus with 32 samples.

Results

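Liver transcripts of 36 genes of fatty acid oxidation and ketogenesis were followed across diet, genotype and sex. They were listed by name: 20 encode mainly mitochondrial proteins, 9 mainly peroxisomal proteins, and 7 act elsewhere or in both compartments. All 36 were among the 41585 gene entries of the count tables of both sexes, and all 36 passed the low-count filter in every comparison, with 13226 genes tested in females, 13460 in males and 14020 across both sexes.

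Fatty acids are burned in liver cells after they have been joined to coenzyme A (CoA). Long-chain acyl groups pass into mitochondria on carnitine and are shortened there in repeated rounds of oxidation, hydration, oxidation and thiolysis, while very-long-chain and branched chains start the same kind of cycle in peroxisomes. The acetyl-CoA that results can be made into ketone bodies, which other tissues use as fuel, and many genes of these routes are known targets of the nuclear receptor PPARα in rodent liver.

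RNA-seq of whole mouse liver was measured in 32 libraries, 4 in each of 8 groups of C57BL/6 background. WT mice were purchased, whereas Cyp2b-null mice, which lack Cyp2b9, Cyp2b10 and Cyp2b13 through CRISPR/Cas9 editing of the germ line, came from their own line, so the genotypes were not littermates. Both were 10 weeks old at the start and were given either normal chow (ND) or CDAHFD, a high-fat diet built from L-amino acids that lacks choline and has 62% fat and 0.1% methionine, for 8 weeks. Females and males were in separate tables, and each library held 2906411 to 10166959 counts on genes.

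Levels are given as CPM, the counts of a gene set to a common library total after scaling by the trimmed mean of M-values (TMM), which treats most genes as unchanged between libraries. Differences between groups are log2 fold changes, each beside its standard error (SE), by the quasi-likelihood test of edgeR, and a gene rose or fell where its Benjamini-Hochberg adjusted p over all genes tested was under 0.05. The deleted genes followed the labels where WT livers expressed them: Cyp2b9 had 683 to 3530 counts in WT female libraries and 2 to 8 in Cyp2b-null females, whereas ND-fed WT males had only 0 to 15. All 8 hepatocyte markers were read in every library, but their median log2 difference between diets was -0.68 in WT females, -0.65 in Cyp2b-null females, -0.74 in WT males and -0.54 in Cyp2b-null males. The summed level of 7 macrophage markers was 123 to 416 CPM across ND-fed and 728 to 1935 CPM across CDAHFD-fed libraries, with Trem2 at 0 throughout, and that of 6 stellate and myofibroblast markers was 44.6 to 97.4 and 279 to 537 CPM. Female replicate 3 and male replicate 4 of the CDAHFD-fed Cyp2b-null mice are absent from the study's heat maps. Their TMM factors, 0.989 and 1.02, were nearer those of ND-fed libraries (0.820 to 0.961) than the 1.08 to 1.28 of the other CDAHFD-fed Cyp2b-null libraries. CDAHFD-fed WT male replicate 1 had a similar factor, 1.003. The libraries absent from the heat maps were kept, and calls that are lost without them are given. In whole tissue, fewer hepatocytes and less RNA per hepatocyte cannot be told apart, and the part of either in the differences below was not tested.

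More of the fatty acid oxidation genes fell than rose on CDAHFD in each of the 4 combinations of genotype and sex, except that scaling by total counts alone gave more that rose in WT females and WT males, and that 5 fell and 5 rose in WT females without ND-fed replicate 2. In WT females 7 of the 36 genes fell and 4 rose, against 10.2% and 13.9% of all genes tested. Cyp2b-null females had 9 that fell and 4 that rose, beside 13.9% and 16.9% of all genes. In WT males 16 fell, where 15% of all genes tested did, and 3 rose, where 18% did. Cyp2b-null males had 18 that fell, where 17.1% of all genes did, and 3 that rose, where 20.3% did. Without female replicate 3 and male replicate 4, 10 fell and 3 rose in Cyp2b-null females, and 17 fell and 3 rose in Cyp2b-null males. When each library was left out in turn, 5 to 8 fell and 2 to 5 rose in WT females, 6 to 11 and 2 to 4 in Cyp2b-null females, 11 to 17 and 3 to 4 in WT males, and 16 to 23 and 2 to 3 in Cyp2b-null males.

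The median log2 difference of the 36 genes was -0.22 in WT females, -0.20 in Cyp2b-null females, -0.39 in WT males and -0.42 in Cyp2b-null males, while the median over all genes lay between -0.02 and 0.03. In WT females the median of the 36 was -0.055 without ND-fed replicate 2. These directions are relative to the bulk of genes. Under the same TMM scaling, the hepatocyte marker medians given above lay below the median of the 36 in each comparison. When libraries were scaled by total counts alone, the median of all genes itself moved to between 0.28 and 0.37, the medians of the 36 became 0.10, 0.05, -0.00071 and -0.06 in the same order, and the calls became 6 higher and 5 lower, 5 and 6, 9 and 7, and 6 and 9. In every comparison under that scaling the median of the 36 still lay below the median of all genes.

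**Figure D1:**
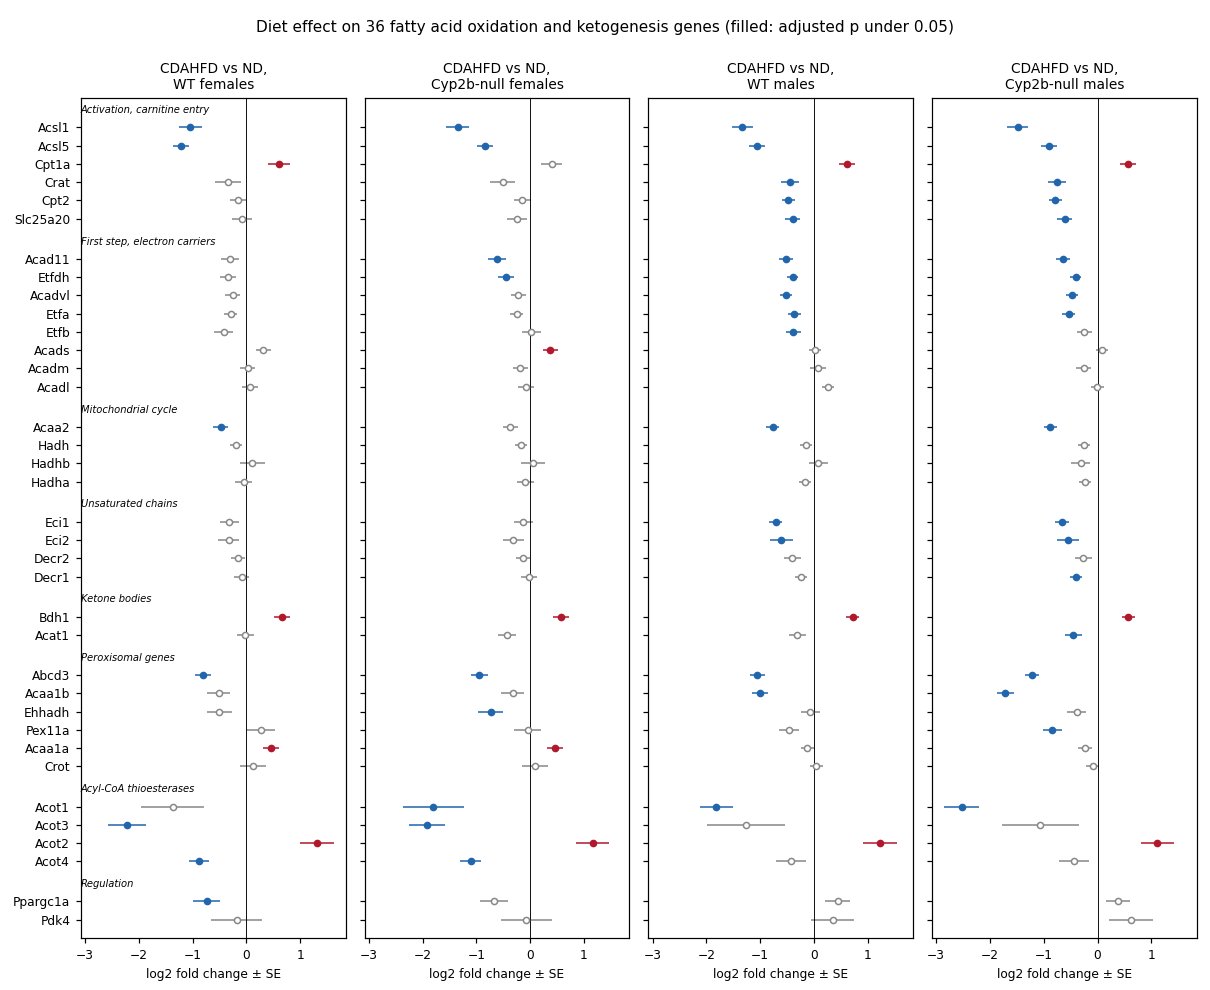
Log2 fold change (CDAHFD against ND) of each of the 36 genes with its SE, by role, in WT females, Cyp2b-null females, WT males and Cyp2b-null males. Filled points passed the test (red higher, blue lower): 4 and 7 in WT females, 4 and 9 in Cyp2b-null females, 3 and 16 in WT males and 3 and 18 in Cyp2b-null males.

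By compartment, counts are given without a test between compartments. Of the 20 mitochondrial genes, 3 rose and 1 fell in each female genotype, whereas 3 rose and 8 fell in WT males and 3 rose and 9 fell in Cyp2b-null males. The female counts lay near or under the shares of all genes given above. Among the 9 peroxisomal genes, 1 rose and 3 fell in WT females, 1 rose and 4 fell in Cyp2b-null females, and 2 and 3 fell in WT and Cyp2b-null males with none rising. None of the 7 other or dual genes rose in any of the 4 diet comparisons, and 3, 4, 6 and 6 of them fell. Their median log2 differences, from -0.61 to -0.75, were further below 0 than those of the mitochondrial genes, which ran from -0.08 to -0.29.

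As a share of all counts on genes, the 36 together took 0.895 to 1.34% of a library. The mitochondrial genes held 0.518 ± 0.0473% (SD, n = 4) in ND-fed and 0.624 ± 0.0503% in CDAHFD-fed WT females, and 0.476 ± 0.0422% and 0.548 ± 0.0425% in WT males. For the other or dual genes the share was 0.201 ± 0.033% and 0.142 ± 0.0152% in WT females and 0.220 ± 0.00461% and 0.142 ± 0.00792% in WT males. With no scaling other than the library total, the mean share of the mitochondrial genes was thus higher on CDAHFD, with overlap between the diets in both sexes, and that of the other or dual genes was lower, without overlap. Peroxisomal genes took 0.357 ± 0.0768% and 0.355 ± 0.0591% in WT females, groups that overlapped widely, and 0.401 ± 0.0383% and 0.281 ± 0.0353% in Cyp2b-null males, where the ND-fed libraries (0.361 to 0.453%) all lay above the CDAHFD-fed ones (0.261 to 0.334%). The diets overlapped in Cyp2b-null females (0.349 to 0.453% on ND, 0.317 to 0.434% on CDAHFD). They also overlapped in WT males (0.329 to 0.382% on ND, 0.287 to 0.376% on CDAHFD).

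**Figure D2:**
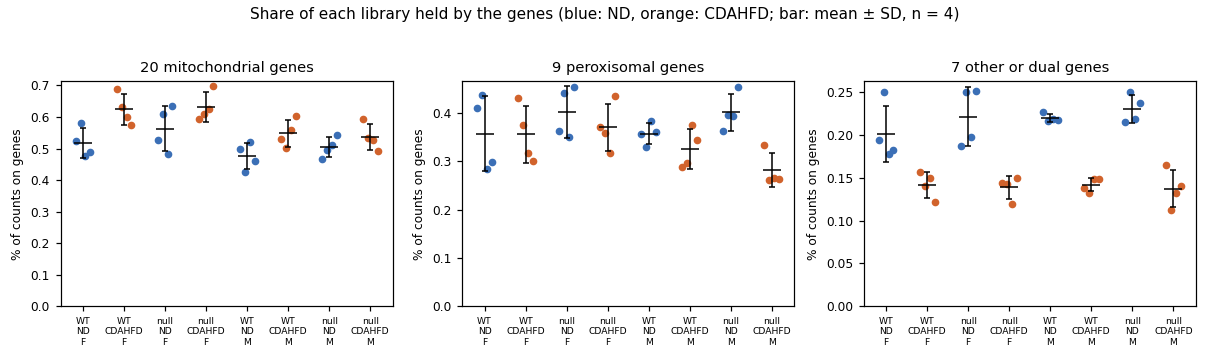
Percent of each library's counts on genes held by the 20 mitochondrial, 9 peroxisomal and 7 other or dual genes, 1 point per library, with mean ± SD (n = 4) in each of 8 groups (WT or Cyp2b-null, ND in blue or CDAHFD in orange, females F, males M). The other or dual genes went from 0.201 ± 0.033% to 0.142 ± 0.0152% in WT females and from 0.220 ± 0.00461% to 0.142 ± 0.00792% in WT males.

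Set per kilobase of merged exon, the scale on which different genes can be put side by side, the levels spanned a wide range. Acaa2, a thiolase of the mitochondrial cycle, was the highest in ND-fed WT females at 577 ± 58.3 CPM per kb (SD, n = 4), and Acaa1b, a peroxisomal thiolase, was next at 546 ± 96.5 CPM per kb. In ND-fed WT males Acaa1b came first at 772 ± 95.1 and Acaa2 second at 738 ± 40.2 CPM per kb, but these neighbours overlapped in both sexes. Etfb, a subunit of the electron transfer flavoprotein, came next in both sexes. Ppargc1a, a transcriptional coactivator, was the lowest, at 3.45 ± 0.917 CPM per kb in ND-fed WT females and 1.47 ± 0.288 in ND-fed WT males. Of the 35 pairs of neighbours in the order, 33 overlapped between libraries in ND-fed WT females and 29 in ND-fed WT males, so only a coarse order can be read.

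Fatty acids are activated by acyl-CoA synthetases, and both synthetase genes of the list fell in every diet comparison. Acsl1 encodes the main long-chain synthetase of liver. Acsl1 was at 843, 1370.0, 729 and 774 CPM in ND-fed and 495, 458, 535 and 286 CPM in CDAHFD-fed WT females, and at 792, 1207, 954 and 1244 CPM in ND-fed and 473, 449.6, 329 and 369 CPM in CDAHFD-fed Cyp2b-null females. Acsl1 was at 1381, 1297, 1152 and 1277 CPM in ND-fed and 589, 495, 494 and 452 CPM in CDAHFD-fed WT males, and at 1279, 1624, 1258 and 1344 CPM in ND-fed and 658, 290.2, 385 and 625 CPM in CDAHFD-fed Cyp2b-null males. Every CDAHFD-fed library lay below every ND-fed library of its sex and genotype. Acsl1 had log2 differences of -1.04 ± 0.22 (SE, adjusted p = 0.00113) in WT females, -1.35 ± 0.22 (SE, adjusted p = 9.2e-05) in Cyp2b-null females, -1.33 ± 0.19 (SE, adjusted p = 1.9e-05) in WT males and -1.49 ± 0.19 (SE, adjusted p = 3.73e-06) in Cyp2b-null males.

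Acsl5, a synthetase of endoplasmic reticulum and mitochondria, showed the same pattern. Acsl5 was at 493, 445, 689 and 678 CPM in ND-fed and 265, 206, 269 and 238 CPM in CDAHFD-fed WT females, and at 489.7, 449, 536 and 509 CPM in ND-fed and 274, 249, 311 and 250.1 CPM in CDAHFD-fed Cyp2b-null females. Acsl5 was at 509, 706, 669 and 570.3 CPM in ND-fed and 340.5, 331, 259 and 244 CPM in CDAHFD-fed WT males, and at 451, 561, 625 and 538 CPM in ND-fed and 283, 325, 243 and 307 CPM in CDAHFD-fed Cyp2b-null males. Again the diets did not overlap in any sex or genotype. Acsl5 had log2 differences of -1.21 ± 0.15 (SE, adjusted p = 4.29e-06) in WT females, -0.85 ± 0.15 (SE, adjusted p = 0.000189) in Cyp2b-null females, -1.06 ± 0.15 (SE, adjusted p = 8.75e-06) in WT males and -0.91 ± 0.14 (SE, adjusted p = 4.31e-05) in Cyp2b-null males. Both genes kept their calls in all 4 diet comparisons under each of the 16 alternatives tried, library-size scaling and the exclusion of single libraries included.

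Entry into mitochondria by the carnitine shuttle was less uniform. Cpt1a, the carnitine palmitoyltransferase of the outer membrane and the rate-controlling step of the route, rose in WT females by 0.61 ± 0.20 (SE, adjusted p = 0.0329), in WT males by 0.62 ± 0.15 (SE, adjusted p = 0.00272) and in Cyp2b-null males by 0.56 ± 0.15 (SE, adjusted p = 0.00503). Its level went from 436 ± 71.1 to 668 ± 81.9 CPM in WT males. In Cyp2b-null females the difference was 0.40 ± 0.20 (SE, adjusted p = 0.14), and the call in WT females was lost in 6 of the 8 fits that left out a library. Cpt2, the palmitoyltransferase of the inner membrane, instead fell in males, by -0.47 ± 0.13 (SE, adjusted p = 0.00666) in WT and -0.78 ± 0.13 (SE, adjusted p = 5.24e-05) in Cyp2b-null mice, with female values of -0.16 and -0.14 that did not pass.

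Slc25a20, the carnitine-acylcarnitine translocase of the inner membrane, had the smallest mean diet difference of this role. Slc25a20 was at 126, 181, 95.4 and 101 CPM in ND-fed and 142, 110.4, 99.6 and 116 CPM in CDAHFD-fed WT females, and at 134, 168, 109 and 166 CPM in ND-fed and 119, 107, 121 and 135 CPM in CDAHFD-fed Cyp2b-null females. Slc25a20 was at 156, 124, 136 and 127 CPM in ND-fed and 108, 91.0, 106 and 107 CPM in CDAHFD-fed WT males, and at 129, 172, 144 and 186 CPM in ND-fed and 128, 92.0, 83.2 and 108 CPM in CDAHFD-fed Cyp2b-null males. The diets overlapped in females and were apart in males. Slc25a20 had log2 differences of -0.08 ± 0.18 (SE, adjusted p = 0.81) in WT females, -0.24 ± 0.18 (SE, adjusted p = 0.335) in Cyp2b-null females, -0.40 ± 0.14 (SE, adjusted p = 0.0343) in WT males and -0.61 ± 0.14 (SE, adjusted p = 0.00147) in Cyp2b-null males, and the call in WT males was lost in 6 of 8 fits that left out a library. Crat, carnitine acetyltransferase, fell in males by -0.45 ± 0.17 (SE, adjusted p = 0.0479) in WT, a call lost under 11 of 16 alternatives, and -0.75 ± 0.17 (SE, adjusted p = 0.00127) in Cyp2b-null mice.

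**Figure D3:**
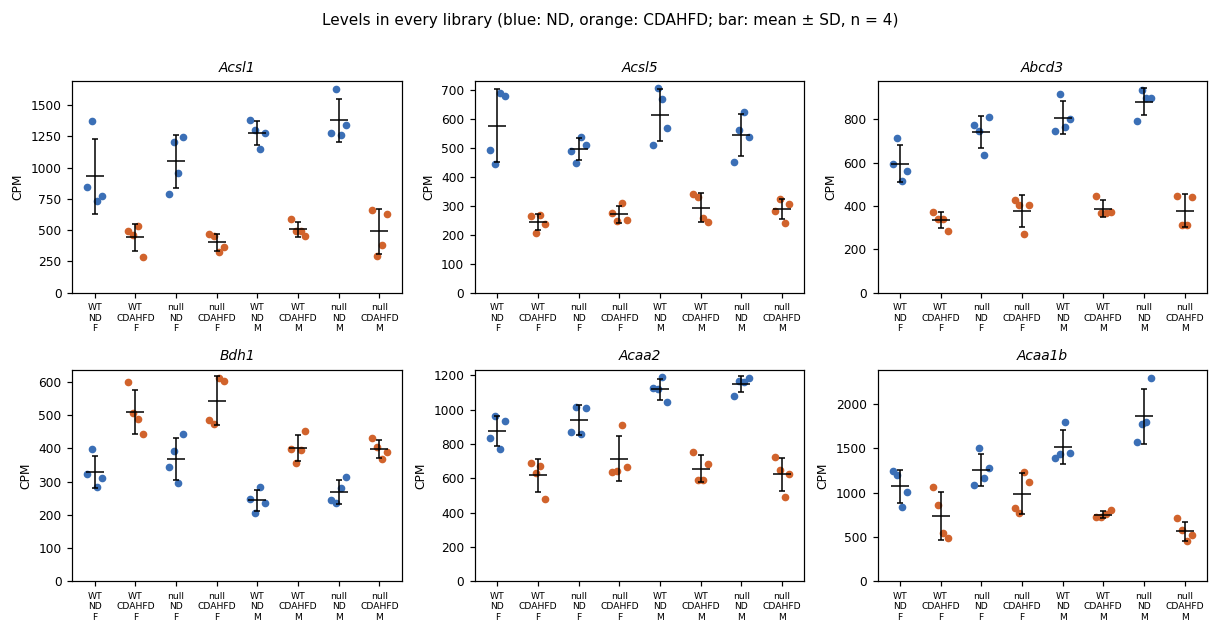
CPM of Acsl1, Acsl5, Abcd3, Bdh1, Acaa2 and Acaa1b in each of the 32 libraries (points) with mean ± SD (n = 4), ND in blue and CDAHFD in orange. Acsl1, Acsl5 and Abcd3 were lower and Bdh1 higher on CDAHFD in all 4 pairs of groups without overlap, whereas Acaa1b was apart between diets in males and overlapped in females.

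In the first step of the cycle, acyl-CoA dehydrogenases of different chain length pass electrons to the electron transfer flavoprotein. None of the 8 genes of this step passed the test in WT females, while in Cyp2b-null females 2 fell and 1 rose, and 5 and 4 fell in WT and Cyp2b-null males. Of all genes tested, 13.9% fell and 16.9% rose in Cyp2b-null females, and 15% and 17.1% fell in WT and Cyp2b-null males. With 8 genes, the counts in Cyp2b-null females lay near those shares. Acad11, an acyl-CoA dehydrogenase of long and 4-hydroxylated chains, had the largest mean difference of the step. Acad11 was at 375, 521, 293 and 324 CPM in ND-fed and 343, 293, 307 and 258 CPM in CDAHFD-fed WT females, and at 431, 508, 415 and 481 CPM in ND-fed and 298, 307, 241 and 330.2 CPM in CDAHFD-fed Cyp2b-null females. Acad11 was at 386, 406, 387 and 384 CPM in ND-fed and 268, 256, 275 and 289 CPM in CDAHFD-fed WT males, and at 411, 396, 333 and 449 CPM in ND-fed and 319, 205, 222 and 268 CPM in CDAHFD-fed Cyp2b-null males. Males were apart between diets in both genotypes, and females only in Cyp2b-null mice. Acad11 had log2 differences of -0.31 ± 0.16 (SE, adjusted p = 0.185) in WT females, -0.61 ± 0.16 (SE, adjusted p = 0.00689) in Cyp2b-null females, -0.52 ± 0.13 (SE, adjusted p = 0.00357) in WT males and -0.64 ± 0.13 (SE, adjusted p = 0.000442) in Cyp2b-null males. With scaling by library size alone these values passed in none of the 4 comparisons.

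Acadl, the long-chain dehydrogenase, had the smallest mean difference of the step. Acadl was at 242, 309, 242 and 198 CPM in ND-fed and 297, 250.9, 228 and 242 CPM in CDAHFD-fed WT females, and at 254, 309, 241 and 312 CPM in ND-fed and 244, 247, 268 and 281 CPM in CDAHFD-fed Cyp2b-null females. Acadl was at 161, 126, 173 and 147 CPM in ND-fed and 178, 169, 169.7 and 208 CPM in CDAHFD-fed WT males, and at 149, 163, 174 and 184 CPM in ND-fed and 183, 157, 163 and 163 CPM in CDAHFD-fed Cyp2b-null males. The diets overlapped in all 4 pairs of groups, and males lay below females on either diet. The diet differences were 0.07 ± 0.14 (SE, adjusted p = 0.787) in WT females, -0.08 ± 0.14 (SE, adjusted p = 0.713) in Cyp2b-null females, 0.26 ± 0.12 (SE, adjusted p = 0.0928) in WT males and -0.00 ± 0.12 (SE, adjusted p = 0.987) in Cyp2b-null males. With scaling by library size alone, Acadl in Cyp2b-null males was at 0.36 and passed (adjusted p = 0.03 in edgeR's test). Acadvl, the very-long-chain dehydrogenase, fell in males by -0.52 ± 0.11 (SE, adjusted p = 0.00128) in WT and -0.47 ± 0.11 (SE, adjusted p = 0.00237) in Cyp2b-null mice. The medium-chain Acadm passed in no diet comparison, with log2 differences from -0.26 to 0.08, and the short-chain Acads passed in 1 of the 4, with 0.38 ± 0.14 (SE, adjusted p = 0.0412) in Cyp2b-null females, which was lost in 9 of 16 alternatives and was 0.21 without CDAHFD-fed replicate 3.

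Of the 3 electron carriers, 0 passed in WT females, 1 fell in Cyp2b-null females, 3 in WT males and 2 in Cyp2b-null males. The shares of all genes that fell were 10.2%, 13.9%, 15% and 17.1% in that order. Etfdh, which hands the electrons on to ubiquinone, fell in Cyp2b-null females by -0.45 ± 0.15 (SE, adjusted p = 0.0244), a call lost without CDAHFD-fed replicate 3 although the difference stayed between -0.51 and -0.37 in all 8 fits without a library, in WT males by -0.39 ± 0.10 (SE, adjusted p = 0.0055) and in Cyp2b-null males by -0.41 ± 0.10 (SE, adjusted p = 0.00317). Etfa, the alpha subunit of the flavoprotein, fell in WT males by -0.36 ± 0.12 (SE, adjusted p = 0.0229) and in Cyp2b-null males by -0.54 ± 0.12 (SE, adjusted p = 0.00118). Its partner Etfb fell in WT males by -0.38 ± 0.14 (SE, adjusted p = 0.042) and did not pass in the other 3 comparisons, and the calls of Etfa and Etfb in WT males were lost in 4 and 6 of 8 fits without a library. Scaled by library size alone, Etfa and Etfdh in WT males were at 0.02 and 0.00088 with no call.

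Upstream of Etfa, RefSeq (GRCm38.p6) holds a near match to the direct repeat known as DR1, which PPARα and other nuclear receptors can bind: AGGTCA, any base N, and AGGTCA again. Windows from 250 bases before to 50 after each start site were searched on both strands with at most 2 of the 12 fixed letters changed, and 3 of the 32 genes with a window held a match (9.38%), against 4.4% of 27025 genes with a window. Acat1, Acaa2, Crat and Decr1 had no window. With at most 1 changed letter no gene of the list had a match, against 0.644% of all. The matches of Acot4, Etfa and Slc25a20 are shown in capitals, since these were the genes of the list that held the repeat. The Acot4 stretch (chr12:84038349-84038378, plus strand) ends at the base before the start site of its window. That start site lies inside the RefSeq gene of Acot4 (chr12:84037254-84044723), so the stretch is not upstream of the gene. The Etfa stretch (chr9:55512284-55512343, minus strand) lies upstream of the Etfa start site. The Slc25a20 match (chr9:108662142-108662154, plus strand) begins 7 bases into the transcript.
Acot4: ggctcagccccgaagcaTGACCTTTGGCCG
Etfa: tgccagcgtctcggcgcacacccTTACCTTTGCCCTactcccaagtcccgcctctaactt
Slc25a20: AGGTGAAAGGTCG
The repeat reads on the opposite strand in Acot4 and Etfa. A match is a match of letters, and no binding was measured.

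Hadha, Hadhb and Hadh, which serve hydration, the second oxidation and thiolysis in the mitochondrial cycle, passed the test in no diet comparison. Hadha and Hadhb encode the subunits of the trifunctional protein. Hadha was at 404, 554, 333 and 381 CPM in ND-fed and 446, 348, 414 and 381 CPM in CDAHFD-fed WT females, and at 443, 484, 387 and 584 CPM in ND-fed and 423, 395, 506 and 434 CPM in CDAHFD-fed Cyp2b-null females. Hadha was at 510.2, 473, 510.1 and 496 CPM in ND-fed and 481, 444, 416 and 428 CPM in CDAHFD-fed WT males, and at 481, 493, 512 and 505 CPM in ND-fed and 512, 387, 355 and 434 CPM in CDAHFD-fed Cyp2b-null males. The diets overlapped in every pair of groups. Hadha had log2 differences of -0.05 ± 0.16 (SE, adjusted p = 0.867) in WT females, -0.09 ± 0.16 (SE, adjusted p = 0.71) in Cyp2b-null females, -0.17 ± 0.11 (SE, adjusted p = 0.281) in WT males and -0.24 ± 0.11 (SE, adjusted p = 0.109) in Cyp2b-null males, with a positive sign in all 4 comparisons under library-size scaling. Hadhb was between -0.31 and 0.11, and Hadh, the short-chain hydroxyacyl-CoA dehydrogenase, between -0.26 and -0.14.

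Hadha (GRCm38.p6, chr5:30119423-30154980, minus strand) and Hadhb (chr5:30155253-30184593, plus strand) lie head to head, with 272 bases between the RefSeq gene ends, and their products act in 1 complex, so their levels were set side by side. Per kilobase of merged exon, Hadha was 6.10 to 21.0 times as high as Hadhb over the 32 libraries. The ratio ran from 6.10 to 10.4 in female and from 10.4 to 21.0 in male libraries. Merged exons take in those of all annotated transcripts of a gene, and how reads with several matches were counted is not given. The part of either in this ratio was not tested. Of the bases between the RefSeq gene ends, 85 (GRCm38.p6, chr5:30155163-30155247, printed on the plus strand, towards Hadhb) are shown. Whether they serve as a start region of both genes was not tested.
Hadha-Hadhb: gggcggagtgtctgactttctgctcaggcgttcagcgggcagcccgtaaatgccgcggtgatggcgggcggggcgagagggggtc
The stretch holds 9 CG dinucleotides and 69.4% G and C.

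Acaa2 stood out among the genes of the mitochondrial cycle. Acaa2 was at 835, 961, 770.2 and 933 CPM in ND-fed and 688, 631, 673 and 477 CPM in CDAHFD-fed WT females, and at 869, 1017, 859 and 1010.4 CPM in ND-fed and 639, 639.9, 913 and 668 CPM in CDAHFD-fed Cyp2b-null females. Acaa2 was at 1123, 1121, 1191 and 1042 CPM in ND-fed and 752, 592, 592 and 686 CPM in CDAHFD-fed WT males, and at 1077, 1166, 1162 and 1186 CPM in ND-fed and 724, 651, 492 and 624 CPM in CDAHFD-fed Cyp2b-null males. In males every CDAHFD-fed library lay below every ND-fed one, as in WT females, while 1 CDAHFD-fed Cyp2b-null female (replicate 3, at 913 CPM) overlapped the ND-fed group. Acaa2 had log2 differences of -0.48 ± 0.14 (SE, adjusted p = 0.0187) in WT females, -0.37 ± 0.14 (SE, adjusted p = 0.0567) in Cyp2b-null females, -0.77 ± 0.13 (SE, adjusted p = 7.26e-05) in WT males and -0.88 ± 0.13 (SE, adjusted p = 1.23e-05) in Cyp2b-null males. Without that replicate the difference in Cyp2b-null females was -0.50 (adjusted p = 0.00788). In WT females the call was lost under library-size scaling and in 3 of 8 fits without a library, and in males it held under all 16 alternatives.

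Unsaturated chains need auxiliary isomerases and reductases, and of the 4 genes for these 0 passed in either female genotype, 2 fell in WT males and 3 in Cyp2b-null males. Of all genes tested, 15% fell in WT males and 17.1% in Cyp2b-null males. Eci1, the mitochondrial enoyl-CoA isomerase, had the largest mean difference of the 4 auxiliary genes. Eci1 was at 153, 171, 129 and 142 CPM in ND-fed and 133, 117, 113 and 106 CPM in CDAHFD-fed WT females, and at 149, 166, 110.4 and 202 CPM in ND-fed and 117, 122, 194 and 134 CPM in CDAHFD-fed Cyp2b-null females. Eci1 was at 195, 197, 200.3 and 194 CPM in ND-fed and 131, 103, 121 and 125 CPM in CDAHFD-fed WT males, and at 161, 188, 182 and 212 CPM in ND-fed and 143, 120.4, 93.2 and 112 CPM in CDAHFD-fed Cyp2b-null males. Male libraries were apart between diets in both genotypes, and female libraries overlapped. Eci1 had log2 differences of -0.32 ± 0.17 (SE, adjusted p = 0.203) in WT females, -0.13 ± 0.17 (SE, adjusted p = 0.609) in Cyp2b-null females, -0.71 ± 0.12 (SE, adjusted p = 0.000157) in WT males and -0.67 ± 0.12 (SE, adjusted p = 0.000235) in Cyp2b-null males. Eci2, another isomerase found in mitochondria and peroxisomes, fell by -0.61 ± 0.21 (SE, adjusted p = 0.0298) in WT and -0.55 ± 0.21 (SE, adjusted p = 0.0416) in Cyp2b-null males, and lost these calls in 5 and 6 of 8 fits without a library. Without CDAHFD-fed replicate 4 it was at -0.51 (adjusted p = 0.0961) in Cyp2b-null males.

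Decr1, the mitochondrial 2,4-dienoyl-CoA reductase, had the smallest mean difference of the 4 auxiliary genes. Decr1 was at 212, 252, 238 and 221 CPM in ND-fed and 257, 205, 192 and 199 CPM in CDAHFD-fed WT females, and at 240.3, 276, 195 and 291 CPM in ND-fed and 203, 225, 302 and 243 CPM in CDAHFD-fed Cyp2b-null females. Decr1 was at 256, 226, 284 and 242 CPM in ND-fed and 227, 195, 216 and 216 CPM in CDAHFD-fed WT males, and at 250.5, 262, 267 and 274 CPM in ND-fed and 239, 181, 184 and 192 CPM in CDAHFD-fed Cyp2b-null males. Only Cyp2b-null males were apart between diets. Decr1 had log2 differences of -0.09 ± 0.15 (SE, adjusted p = 0.71) in WT females, -0.02 ± 0.15 (SE, adjusted p = 0.935) in Cyp2b-null females, -0.24 ± 0.11 (SE, adjusted p = 0.108) in WT males and -0.40 ± 0.11 (SE, adjusted p = 0.00654) in Cyp2b-null males. The peroxisomal reductase Decr2 passed in no diet comparison (-0.41 to -0.14).

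Bdh1 rose in all 4 diet comparisons. It encodes the dehydrogenase that turns acetoacetate into 3-hydroxybutyrate. Bdh1 was at 322, 398, 283 and 312 CPM in ND-fed and 601, 508, 488 and 443 CPM in CDAHFD-fed WT females, and at 345, 393, 297 and 443 CPM in ND-fed and 485, 474, 611 and 602 CPM in CDAHFD-fed Cyp2b-null females. Bdh1 was at 249, 205, 283 and 237 CPM in ND-fed and 399, 357, 396 and 453 CPM in CDAHFD-fed WT males, and at 244, 236, 281 and 313 CPM in ND-fed and 431, 405, 367 and 390.0 CPM in CDAHFD-fed Cyp2b-null males. In all 4 pairs of groups the lowest CDAHFD-fed library was above the highest ND-fed one. Bdh1 had log2 differences of 0.66 ± 0.15 (SE, adjusted p = 0.00252) in WT females, 0.58 ± 0.15 (SE, adjusted p = 0.0058) in Cyp2b-null females, 0.72 ± 0.12 (SE, adjusted p = 0.000113) in WT males and 0.57 ± 0.12 (SE, adjusted p = 0.000923) in Cyp2b-null males, and the calls held under all 16 alternatives.

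Acat1, the mitochondrial acetoacetyl-CoA thiolase, did not rise with Bdh1. Acat1 was at 421, 596, 446 and 434 CPM in ND-fed and 499, 478, 488 and 377 CPM in CDAHFD-fed WT females, and at 445, 603, 425 and 750.0 CPM in ND-fed and 419.9, 389, 383 and 420.5 CPM in CDAHFD-fed Cyp2b-null females. Acat1 was at 364, 285, 418 and 291 CPM in ND-fed and 336, 261, 223 and 278 CPM in CDAHFD-fed WT males, and at 277, 335, 363 and 400.1 CPM in ND-fed and 267, 239, 200.04 and 295 CPM in CDAHFD-fed Cyp2b-null males. The diets were apart only in Cyp2b-null females, where the 4 CDAHFD-fed libraries spanned 383 to 420 CPM and the 4 ND-fed ones 425 to 750 CPM. Acat1 had log2 differences of -0.02 ± 0.17 (SE, adjusted p = 0.957) in WT females, -0.44 ± 0.17 (SE, adjusted p = 0.0519) in Cyp2b-null females, -0.30 ± 0.16 (SE, adjusted p = 0.147) in WT males and -0.46 ± 0.16 (SE, adjusted p = 0.0272) in Cyp2b-null males. The call in Cyp2b-null males was lost in 4 of 8 fits that left out a library.

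Among peroxisomal genes, Abcd3 moved most evenly. It encodes a transporter that carries acyl-CoA into the peroxisome. Abcd3 was at 592, 712, 513 and 562 CPM in ND-fed and 374, 338, 342 and 285 CPM in CDAHFD-fed WT females, and at 772, 744, 637 and 812 CPM in ND-fed and 428, 405, 271 and 405 CPM in CDAHFD-fed Cyp2b-null females. Abcd3 was at 744, 917, 765 and 802 CPM in ND-fed and 447, 366, 366 and 374 CPM in CDAHFD-fed WT males, and at 792, 934, 900.2 and 897 CPM in ND-fed and 445, 314, 313 and 442 CPM in CDAHFD-fed Cyp2b-null males. The diets did not overlap in any pair of groups. Abcd3 had log2 differences of -0.80 ± 0.15 (SE, adjusted p = 0.000505) in WT females, -0.95 ± 0.15 (SE, adjusted p = 9.18e-05) in Cyp2b-null females, -1.05 ± 0.14 (SE, adjusted p = 4.09e-06) in WT males and -1.22 ± 0.14 (SE, adjusted p = 5.31e-07) in Cyp2b-null males, and all 4 calls held under every one of the 16 alternatives.

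Acaa1a and Acaa1b are paralogs on chromosome 9 that encode peroxisomal 3-ketoacyl-CoA thiolases. Acaa1b had the largest mean difference of the peroxisomal cycle. Acaa1b was at 1248, 1199, 836 and 1005 CPM in ND-fed and 1066, 863, 539 and 488 CPM in CDAHFD-fed WT females, and at 1086, 1503, 1166 and 1284 CPM in ND-fed and 823, 776, 1237 and 1125 CPM in CDAHFD-fed Cyp2b-null females. Acaa1b was at 1386, 1435, 1792 and 1446 CPM in ND-fed and 719.9, 727, 759 and 801 CPM in CDAHFD-fed WT males, and at 1573, 1778, 1792 and 2295 CPM in ND-fed and 709, 577, 451 and 527 CPM in CDAHFD-fed Cyp2b-null males. In males the highest CDAHFD-fed value was below the lowest ND-fed value in both genotypes, while the female diets overlapped. Acaa1b had log2 differences of -0.51 ± 0.21 (SE, adjusted p = 0.0896) in WT females, -0.32 ± 0.21 (SE, adjusted p = 0.265) in Cyp2b-null females, -1.01 ± 0.15 (SE, adjusted p = 1.96e-05) in WT males and -1.71 ± 0.15 (SE, adjusted p = 2.1e-08) in Cyp2b-null males. Its paralog Acaa1a rose in females, by 0.46 ± 0.15 (SE, adjusted p = 0.0313) in WT and 0.46 ± 0.15 (SE, adjusted p = 0.0266) in Cyp2b-null mice, but lost the call in 5 and 4 of 8 fits without a library (0.24 in Cyp2b-null females without CDAHFD-fed replicate 3), and it was at -0.12 and -0.23 in males with no call.

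The coding sequences of Acaa1a and Acaa1b (GENCODE vM21) were 96.5% identical over 1275 aligned bases, with an identical run of 327 bases. Reads from such runs could be given to either gene, and how reads with several matches were counted is not given in the sources used here. The 60 coding bases with most differences (bases 259 to 318 of both) are shown to mark where reads can tell the genes apart, with the 11 differing bases in capitals.
Acaa1a: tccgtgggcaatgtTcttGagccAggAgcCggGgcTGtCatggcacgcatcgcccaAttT
Acaa1b: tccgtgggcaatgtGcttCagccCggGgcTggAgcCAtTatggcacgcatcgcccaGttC
Summed over both genes, the level went from 1695 ± 198 to 917 ± 50.7 CPM in WT males and from 2054 ± 327 to 731 ± 121 CPM in Cyp2b-null males (SD, n = 4). In WT females the sum was 1232 ± 190 CPM on ND and 956 ± 294 CPM on CDAHFD, groups that overlapped.

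Of the other peroxisomal genes, Ehhadh, the bifunctional hydratase and dehydrogenase, fell in Cyp2b-null females by -0.74 ± 0.23 (SE, adjusted p = 0.0187) and did not pass in the other 3 comparisons. Its adjusted p rose above 0.05 without the CDAHFD-fed replicate 3 or the ND-fed replicate 4, while the difference stayed between -0.92 and -0.59 in all 8 fits that left out a library. Pex11a, a gene of peroxisome division and a PPARα target, fell in Cyp2b-null males by -0.84 ± 0.18 (SE, adjusted p = 0.00077), and did not pass in the other 3. Crot, the carnitine octanoyltransferase that exports shortened chains, had the smallest mean difference of the peroxisomal role. Crot was at 1053, 1279.9, 611 and 507 CPM in ND-fed and 968, 925, 969.6 and 834 CPM in CDAHFD-fed WT females, and at 614, 750.5, 718 and 1077 CPM in ND-fed and 1055, 885, 538 and 811 CPM in CDAHFD-fed Cyp2b-null females. Crot was at 1034, 872, 947 and 996 CPM in ND-fed and 968, 1020.5, 1148 and 825 CPM in CDAHFD-fed WT males, and at 856, 909.6, 860.2 and 841 CPM in ND-fed and 891, 760.1, 690.1 and 902 CPM in CDAHFD-fed Cyp2b-null males. The groups overlapped throughout, and the log2 differences were 0.12 ± 0.25 (SE, adjusted p = 0.771) in WT females, 0.09 ± 0.25 (SE, adjusted p = 0.822) in Cyp2b-null females, 0.05 ± 0.12 (SE, adjusted p = 0.816) in WT males and -0.09 ± 0.12 (SE, adjusted p = 0.599) in Cyp2b-null males.

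Acyl-CoA thioesterases cleave the CoA from activated fatty acids, and the 4 type I genes of the list lie in the order Acot2, Acot1, Acot4 and Acot3 within 72540 bases of chromosome 12 (GRCm38.p6, chr12:83987861-84060400, plus strand). They moved in opposite directions. Acot2, the mitochondrial enzyme, rose in all 4 diet comparisons. Acot2 was at 9.52, 18.7, 8.40 and 9.29 CPM in ND-fed and 32.5, 24.9, 15.1 and 35.5 CPM in CDAHFD-fed WT females, and at 6.64, 14.1, 7.67 and 15.9 CPM in ND-fed and 19.1, 22.6, 22.1 and 36.7 CPM in CDAHFD-fed Cyp2b-null females. Acot2 was at 8.63, 12.6, 9.04 and 10.7 CPM in ND-fed and 10.6, 32.2, 28.2 and 25.0 CPM in CDAHFD-fed WT males, and at 10.9, 13.4, 7.99 and 9.95 CPM in ND-fed and 38.7, 22.5, 18.6 and 11.3 CPM in CDAHFD-fed Cyp2b-null males. Only Cyp2b-null females were apart between diets, and the other 3 pairs of groups overlapped. Acot2 had log2 differences of 1.31 ± 0.31 (SE, adjusted p = 0.00359) in WT females, 1.16 ± 0.30 (SE, adjusted p = 0.00646) in Cyp2b-null females, 1.24 ± 0.32 (SE, adjusted p = 0.00452) in WT males and 1.11 ± 0.31 (SE, adjusted p = 0.00799) in Cyp2b-null males. The call in Cyp2b-null males was lost without CDAHFD-fed replicate 1.

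Acot1, the cytosolic enzyme, fell in 3 of the 4. Acot1 was at 48.2, 116, 11.8 and 17.4 CPM in ND-fed and 23.8, 13.7, 14.1 and 20.3 CPM in CDAHFD-fed WT females, and at 19.3, 113, 31.0 and 122 CPM in ND-fed and 8.78, 18.2, 22.8 and 30.2 CPM in CDAHFD-fed Cyp2b-null females. Acot1 was at 40.6, 19.99, 33.6 and 35.2 CPM in ND-fed and 3.97, 4.99, 13.9 and 12.6 CPM in CDAHFD-fed WT males, and at 27.2, 36.6, 25.9 and 41.4 CPM in ND-fed and 8.84, 4.36, 5.07 and 4.50 CPM in CDAHFD-fed Cyp2b-null males. The ND-fed females were far apart from each other, from 11.8 to 116 CPM in WT and from 19.3 to 122 CPM in Cyp2b-null mice, and overlapped the CDAHFD-fed libraries, whereas the male diets did not overlap. Acot1 had log2 differences of -1.37 ± 0.59 (SE, adjusted p = 0.0987) in WT females, -1.80 ± 0.57 (SE, adjusted p = 0.0196) in Cyp2b-null females, -1.81 ± 0.31 (SE, adjusted p = 0.000117) in WT males and -2.53 ± 0.32 (SE, adjusted p = 2.84e-06) in Cyp2b-null males. In WT females the difference was -0.52 (adjusted p = 0.55) without ND-fed replicate 2 and -1.69 (adjusted p = 0.0382) without ND-fed replicate 3. In Cyp2b-null females the call was lost in 3 of 8 fits without a library.

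The coding sequences of Acot1 and Acot2 were 95.5% identical over 1239 aligned bases, with an identical run of 273 bases, and Acot1 and Acot3 were 84.0% identical. Reads from the identical runs could again be given to either gene. The 60 bases with most differences (coding bases 823 to 882 of Acot1 and 946 to 1005 of Acot2) are shown with the 13 differing bases in capitals.
Acot1: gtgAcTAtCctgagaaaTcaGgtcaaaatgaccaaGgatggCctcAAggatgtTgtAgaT
Acot2: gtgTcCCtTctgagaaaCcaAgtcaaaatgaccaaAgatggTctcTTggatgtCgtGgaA
Summed over Acot1 and Acot2, the level was 59.8 ± 52.6 CPM on ND and 45.0 ± 13.3 CPM on CDAHFD in WT females, and 42.6 ± 7.19 and 32.8 ± 12.4 CPM in WT males (SD, n = 4). The diets overlapped in both.

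Acot3, a peroxisomal long-chain thioesterase, had far higher levels in female than in male livers. Acot3 was at 182, 201, 133 and 177 CPM in ND-fed and 66.8, 33.0, 29.0 and 18.5 CPM in CDAHFD-fed WT females, and at 151, 272, 223 and 173 CPM in ND-fed and 29.6, 54.6, 95.5 and 32.7 CPM in CDAHFD-fed Cyp2b-null females. Acot3 was at 10.5, 6.77, 9.18 and 47.8 CPM in ND-fed and 0.757, 3.95, 4.08 and 21.4 CPM in CDAHFD-fed WT males, and at 17.4, 11.1, 8.84 and 25.7 CPM in ND-fed and 19.0, 2.08, 7.14 and 2.46 CPM in CDAHFD-fed Cyp2b-null males. Every ND-fed female library was at 133 CPM or more and every male library at 47.8 CPM or less, and the diets were apart in females and overlapped in males. Acot3 had log2 differences of -2.22 ± 0.34 (SE, adjusted p = 6.27e-05) in WT females, -1.93 ± 0.34 (SE, adjusted p = 0.000202) in Cyp2b-null females, -1.26 ± 0.73 (SE, adjusted p = 0.199) in WT males and -1.06 ± 0.72 (SE, adjusted p = 0.267) in Cyp2b-null males. The value in WT males rested on single libraries: it was -2.57 (adjusted p = 0.0169) without CDAHFD-fed replicate 4 and -0.22 (adjusted p = 0.848) without ND-fed replicate 4. In Cyp2b-null males it ran from -1.93 to -0.72 when 1 library was left out.

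Acot4, a peroxisomal succinyl-CoA thioesterase, followed Acot3. Acot4 was at 69.6, 100.5, 64.5 and 77.4 CPM in ND-fed and 58.7, 39.8, 36.4 and 31.6 CPM in CDAHFD-fed WT females, and at 81.8, 99.6, 86.6 and 77.8 CPM in ND-fed and 27.6, 47.5, 36.7 and 45.3 CPM in CDAHFD-fed Cyp2b-null females. Acot4 was at 37.5, 27.4, 23.3 and 61.8 CPM in ND-fed and 18.7, 28.3, 28.1 and 34.7 CPM in CDAHFD-fed WT males, and at 37.5, 32.1, 26.7 and 42.5 CPM in ND-fed and 41.6, 18.1, 22.1 and 21.5 CPM in CDAHFD-fed Cyp2b-null males. Female diets were apart in both genotypes and male diets overlapped. Acot4 had log2 differences of -0.88 ± 0.19 (SE, adjusted p = 0.00186) in WT females, -1.10 ± 0.19 (SE, adjusted p = 0.000204) in Cyp2b-null females, -0.43 ± 0.28 (SE, adjusted p = 0.251) in WT males and -0.44 ± 0.28 (SE, adjusted p = 0.231) in Cyp2b-null males. The female calls of Acot3 and Acot4 held under all 16 alternatives.

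**Figure D4:**
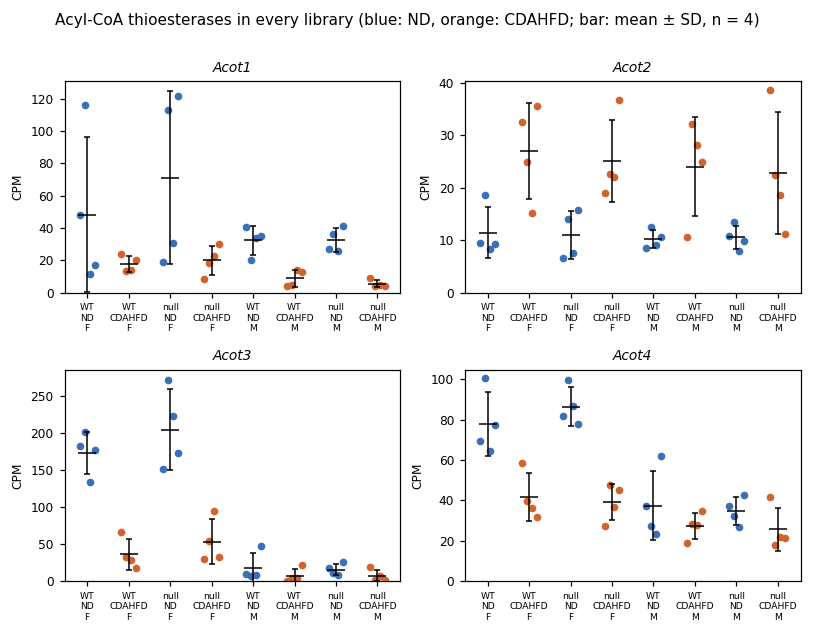
CPM of Acot1, Acot2, Acot3 and Acot4 in each of the 32 libraries (points) with mean ± SD (n = 4), ND in blue and CDAHFD in orange. Acot3 went from 133 to 201 CPM in ND-fed WT females to 18.5 to 66.8 CPM in CDAHFD-fed WT females, and Acot2 was the only one of the 4 that rose.

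Regulation was represented by 2 genes. Ppargc1a encodes PGC-1α, a coactivator of mitochondrial genes. Ppargc1a was at 16.1, 30.2, 24.5 and 20.1 CPM in ND-fed and 9.61, 11.3, 12.1 and 18.7 CPM in CDAHFD-fed WT females, and at 16.9, 13.1, 22.2 and 13.7 CPM in ND-fed and 14.0, 8.70, 6.59 and 10.7 CPM in CDAHFD-fed Cyp2b-null females. Ppargc1a was at 7.71, 11.6, 11.1 and 8.52 CPM in ND-fed and 12.1, 11.2, 11.2 and 18.6 CPM in CDAHFD-fed WT males, and at 9.77, 8.87, 11.4 and 7.74 CPM in ND-fed and 16.4, 8.93, 9.96 and 14.5 CPM in CDAHFD-fed Cyp2b-null males. The diets overlapped in all 4 pairs of groups. Ppargc1a had log2 differences of -0.74 ± 0.25 (SE, adjusted p = 0.0353) in WT females, -0.67 ± 0.26 (SE, adjusted p = 0.054) in Cyp2b-null females, 0.44 ± 0.23 (SE, adjusted p = 0.145) in WT males and 0.38 ± 0.23 (SE, adjusted p = 0.21) in Cyp2b-null males, and the call in WT females was lost in 5 of 8 fits without a library. Pdk4, the pyruvate dehydrogenase kinase that spares glucose carbon when fat is burned, passed nowhere. Pdk4 was at 39.1, 34.0, 11.1 and 15.1 CPM in ND-fed and 13.3, 14.6, 17.9 and 38.6 CPM in CDAHFD-fed WT females, and at 5.74, 14.7, 22.2 and 36.2 CPM in ND-fed and 13.0, 21.5, 7.84 and 31.2 CPM in CDAHFD-fed Cyp2b-null females. Pdk4 was at 3.12, 11.7, 19.9 and 16.8 CPM in ND-fed and 18.9, 13.5, 17.7 and 15.4 CPM in CDAHFD-fed WT males, and at 10.8, 13.9, 6.73 and 1.77 CPM in ND-fed and 12.9, 11.6, 11.04 and 16.6 CPM in CDAHFD-fed Cyp2b-null males. Its diets overlapped in every pair of groups, and the log2 differences were -0.18 ± 0.47 (SE, adjusted p = 0.825) in WT females, -0.07 ± 0.48 (SE, adjusted p = 0.926) in Cyp2b-null females, 0.35 ± 0.39 (SE, adjusted p = 0.535) in WT males and 0.61 ± 0.41 (SE, adjusted p = 0.258) in Cyp2b-null males.

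Between Cyp2b-null and WT mice, no gene of the 36 passed the test on either diet in either sex. In edgeR's test 0 of 36 passed between genotypes in ND-fed females, CDAHFD-fed females, ND-fed males and CDAHFD-fed males, against 0.0756%, 0.0227%, 0.0371% and 0.0297% of all genes, and DESeq2 also called 0 in each. At an unadjusted p under 0.05 there were 1, 0, 1 and 2. The log2 differences lay between -0.47 (Ppargc1a) and 0.62 (Acot1) in ND-fed females, with a median SE of 0.17, and between -0.70 (Acot1) and 0.23 (Decr2) in CDAHFD-fed males, with a median SE of 0.14. Without the low-count filter, Acot1 passed in ND-fed females at 0.66 (adjusted p = 0.0278).

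Signs between genotypes are given, without a test, for ND-fed females and CDAHFD-fed males. In ND-fed females 31 of 36 genes were higher in Cyp2b-null mice, with a median log2 difference of 0.15, and in CDAHFD-fed males 7 of 36 were higher, with a median of -0.07. When 1 library was left out, the first median ran from 0.058 (without Cyp2b-null replicate 4) to 0.29 (without WT replicate 2), and the second from -0.17 (without Cyp2b-null replicate 1) to 0.0022 (without Cyp2b-null replicate 3). The lowest adjusted p of the 36 in ND-fed females was 0.863 in edgeR's test. The share of all genes with the same signs is not given here, so no genotype difference is read from these counts. Of the 4 genotype comparisons, the groups were apart only for Acaa1a in ND-fed females, at 0.25 ± 0.15 (SE, adjusted p = 0.906), and for Acaa1b in CDAHFD-fed males, at -0.41 ± 0.15 (SE, adjusted p = 1). How many of all genes had groups apart was not counted, and neither gene passed the test, so no genotype difference is read from them.

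The diet response was also tested directly between genotypes. In females 0 of 36 genes passed (0% of all genes, 0 at an unadjusted p under 0.05), and in males 0 of 36 (0.00743% of all genes, 1 at an unadjusted p under 0.05), with 0 by DESeq2 in each. That 1 gene was Acaa1b, at -0.71 ± 0.21 (SE, adjusted p = 0.562).

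**Figure D5:**
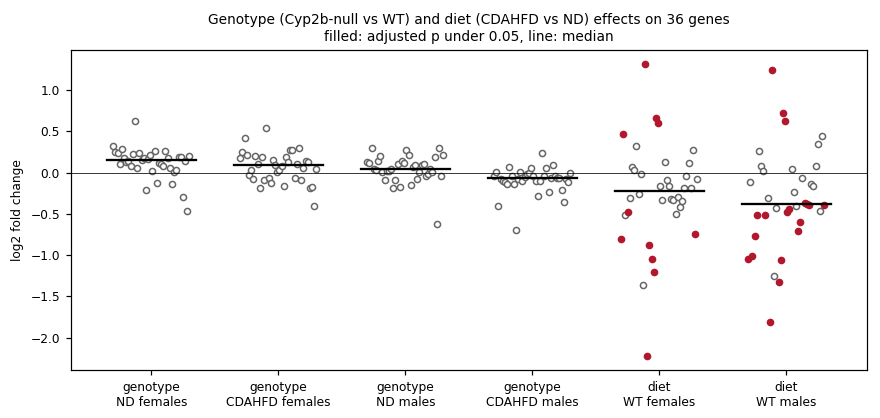
Log2 fold change of the 36 genes between Cyp2b-null and WT mice on each diet in each sex, beside the diet effect in WT mice (points, filled where the adjusted p was under 0.05, line at the median). No point is filled in the 4 genotype comparisons, whose medians run from -0.07 to 0.15.

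Between the sexes the diet response differed beyond the threshold for 1 gene. In WT mice 0 of 36 genes passed (0.97% of all genes), with 3 at an unadjusted p under 0.05 and 0 by DESeq2. In Cyp2b-null mice Acaa1b passed (3.4% of all genes passed), its diet effect being lower in males by -1.37 ± 0.27 (SE, adjusted p = 0.00363), and 7 genes had an unadjusted p under 0.05. DESeq2 called 3, Cpt2 and Acaa1a beside Acaa1b. For Ppargc1a, which fell in WT females, the difference between sexes was 1.21 ± 0.35 (SE, adjusted p = 0.0949) in WT and 1.07 ± 0.35 (SE, adjusted p = 0.0841) in Cyp2b-null mice. A call in males and not in females is therefore no shown difference between the sexes for any member but Acaa1b in Cyp2b-null mice.

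Levels on ND also differed by sex. Between WT males and WT females 11 of 36 genes passed, against 17.8% of all genes: 10 were lower in males and 1, Abcd3, was higher (0.44 ± 0.14 (SE, adjusted p = 0.029)). Sex and count table coincide, so they cannot be told apart here. Acot3 had the largest difference, -3.27 ± 0.59 (SE, adjusted p = 0.000157), and was at 173 ± 28.6 CPM in females and 18.6 ± 19.6 CPM in males (SD, n = 4). It was at -4.30 without the male replicate 4. Ppargc1a (-1.19 ± 0.25 (SE, adjusted p = 0.000973)), Acot4 (-1.07 ± 0.25 (SE, adjusted p = 0.00313)) and Ehhadh (-0.87 ± 0.22 (SE, adjusted p = 0.00549)) followed.

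The lower male genes included the straight-chain dehydrogenases Acadl (-0.70 ± 0.13 (SE, adjusted p = 0.000193)) and Acadm (-0.50 ± 0.14 (SE, adjusted p = 0.0141)) and Hadh (-0.52 ± 0.11 (SE, adjusted p = 0.000996)). Acat1, Bdh1 and Etfa completed the list, each with a difference of under 0.5 on the log2 scale. Scaled by library size alone, 11 were lower and 0 higher, Abcd3 no longer among them, while the median of all genes moved from -0.04 to -0.14. With only the 8 libraries compared, 6 of the 11 kept the call, and with ND-fed male replicate 2 or replicate 4 left out 6 members passed in all. DESeq2 called 10 lower and 5 higher in males, and without the low-count filter 11 were lower and 3 higher.

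Other genes of the same pathways were listed without being members. Of 15 tested genes listed under mitochondrial oxidation and ketogenesis, among them Nudt7 and Nudt19, which encode peroxisomal CoA diphosphatases, 2 rose and 3 fell in WT females, 2 and 1 in Cyp2b-null females, 2 and 4 in WT males, and 2 and 8 in Cyp2b-null males. Nudt7 was among those that fell in males, with -1.63 ± 0.24 (SE, adjusted p = 1.91e-05) in WT and -1.76 ± 0.24 (SE, adjusted p = 6e-06) in Cyp2b-null mice. Acot9, a mitochondrial thioesterase, was the largest rise, 2.20 ± 0.26 (SE, adjusted p = 3.07e-06) in WT females and 2.03 ± 0.26 (SE, adjusted p = 4.31e-06) in WT males. Among 13 other peroxisomal oxidation genes 0 rose and 4 fell in WT females, 0 and 5 in Cyp2b-null females, 1 and 8 in WT males, and 1 and 9 in Cyp2b-null males. Of all genes tested, 13.9% rose and 10.2% fell in WT females, and 16.9% and 13.9% in Cyp2b-null females. In males the shares were 18% and 15% in WT and 20.3% and 17.1% in Cyp2b-null mice. The 2 that rose among the 15 genes of the first list lay near or under these shares.

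Hacl1, the peroxisomal lyase of alpha-oxidation, had the largest fall, -1.91 ± 0.15 (SE, adjusted p = 8.38e-09) in WT females and -2.23 ± 0.15 (SE, adjusted p = 1.41e-09) in WT males. Of 15 peroxisome biogenesis genes none rose, and 2, 3, 6 and 8 fell in WT females, Cyp2b-null females, WT males and Cyp2b-null males. Among all genes tested, 10.2%, 13.9%, 15% and 17.1% fell in the same order, so the female counts lay near these shares. The median log2 differences of the 15 biogenesis genes were -0.18, -0.13, -0.21 and -0.46 in that order.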

How the data were processed

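Whole-liver RNA-seq was analysed from raw counts per gene deposited by the authors, in 1 table for each sex (16 libraries and 41585 entries each, 0 columns unused). The authors trimmed reads with Trimmomatic after FastQC, aligned them to GRCm38.p6 with GSNAP and counted them with Subread featureCounts. Versions, strand setting and the treatment of reads with several matches are not given in the sources used here. Of the entries, 27 had symbols that a spreadsheet had turned into dates, and 0 named no gene.

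Groups came from the sample labels. The 36 genes, the other gene lists and the tests were chosen with earlier results of these data known. Counts were filtered with filterByExpr (minimum count 10, total 15), scaled by TMM and tested with edgeR 4.0.16 (quasi-likelihood, R 4.3.3), the 4 groups of a sex in 1 fit and all 8 groups in 1 fit for differences between sexes. Genes were called at a Benjamini-Hochberg adjusted p under 0.05 over all genes tested. CPM came from TMM factors over all 32 libraries. The labels number the libraries of a group as replicates and do not name the animals, so p-values measure the spread between these libraries. Values are given in every library for the genes with the largest and the smallest mean absolute diet effect within each role, for those called in an interaction, and for the 3 largest called changes of each diet comparison.

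Alternatives were DESeq2 1.42.0, RLE and library-size scaling, no filter or at least 1 CPM in 4 libraries, a replicate block, only the groups compared, and each library left out. Replicate numbers are shared between groups, but deviations of same-numbered libraries correlated weakly (-0.169 to 0.281), so they were not treated as pairs in the main fits. The diet comparison in WT males came closest to pairing. There 3 libraries correlated best with their own number, with a mean of 0.084 against -0.028 for other numbers. The scripts were tested on simulated counts. Libraries held 2906411 to 10166959 counts on genes. Every member was read in each of them, but some at few counts. The fewest were 4, for Acot3 in a CDAHFD-fed WT male. Sequences were read from RefSeq (GRCm38.p6) and coding sequences and exon lengths from GENCODE vM21 with Biopython 1.88. Tables were handled with pandas 2.3.3 and figures drawn with matplotlib 3.10.9.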

Additional observations from a re-analysis of the deposited data

Results flagged for a closer look

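Levels in CPM were screened within each group of 4 libraries for a highest or lowest library far from the other 3. Of 288 sets of a gene and a group, 22 had such a library, and chance alone gives about 14 (1 in 20). Of these, 5 came from CDAHFD-fed Cyp2b-null female replicate 3, which had Acaa2 at 913 (others 639 to 668), Decr2 at 312 (279 to 282), Etfa at 325 (279 to 283), Etfb at 576 (285 to 294) and Abcd3 at 271 (405 to 428). In CDAHFD-fed Cyp2b-null males, replicate 1 was high for Ehhadh at 429 (217 to 243), Acot1 at 8.84 (4.36 to 5.07) and Acot4 at 41.6 (18.1 to 22.1).

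ND-fed WT female replicate 2 was high for Acat1 at 596 (421 to 446), Acot2 at 18.7 (8.40 to 9.52) and Pex11a at 115 (48.5 to 51.4). CDAHFD-fed WT female replicate 1 was high for Acadvl at 309.6 (257 to 263) and Ehhadh at 609 (362 to 403). In ND-fed WT males, Acad11 was at 406 in replicate 2 (384 to 387), Acaa1b at 1792 in replicate 3 (1386 to 1446) and Acot3 at 47.8 in replicate 4 (6.77 to 10.5).

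Among CDAHFD-fed WT males, replicate 4 was high for Acot3 at 21.4 (0.757 to 4.08), Pex11a at 76.3 (50.9 to 55.1) and Ppargc1a at 18.6 (11.2 to 12.1). Replicate 1 of that group was high for Etfb at 403 (297 to 313) and Abcd3 at 447 (366 to 374), and replicate 2 was low for Slc25a20 at 91.0 (106 to 108).

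The diet effect on Acaa1b differed between Cyp2b-null males and females by -1.37 ± 0.27 on the log2 scale (SE, adjusted p = 0.00363 in edgeR's fit of all 32 libraries). It passed under all 24 alternatives, with values of -1.50 to -1.24 when 1 library was left out. Acaa1b shares an identical run of 327 coding bases with Acaa1a, and the part of shared reads in this difference was not tested.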

How the results depend on the processing

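Of 76 named values past the threshold, 52 kept their call under library-size scaling, the alternative that moved most, and 66 to 75 under each of the others that used all libraries of a comparison. Counts of called members changed as follows. Without the low-count filter, 11 genes fell in WT females, 2 rose in Cyp2b-null females, 1 differed by genotype in ND-fed females, and 2 (WT) and 5 (Cyp2b-null) differed in diet effect by sex. With library-size scaling 9 rose and 7 fell in WT males, and 6 rose and 9 fell in Cyp2b-null males. With only the groups compared, 2 rose in Cyp2b-null females, 2 differed in diet effect by sex in Cyp2b-null mice, and 7 between WT males and females, while DESeq2 called 3 and RLE scaling 2 for diet by sex in Cyp2b-null mice. With at most 1 changed letter 0 promoters matched.

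Leaving out 1 library gave 2 to 5 that rose and 5 to 8 that fell in WT females, 2 to 4 and 6 to 11 in Cyp2b-null females, 3 to 4 and 11 to 17 in WT males, and 2 to 3 and 16 to 23 in Cyp2b-null males. For diet by sex it gave 0 to 1 in WT and 1 to 3 in Cyp2b-null mice, and for males against females 6 to 12. The 2 that rose in WT females came without ND-fed replicate 1, 3 or 4 or CDAHFD-fed replicate 1 or 2, the 2 in Cyp2b-null females without ND-fed replicate 1, 3 or 4, the 6 that fell without ND-fed replicate 4, and the 1 in WT mice without CDAHFD-fed female replicate 4. The 3 in Cyp2b-null mice came without CDAHFD-fed female replicate 1, and 2 were called without CDAHFD-fed female replicate 2 or CDAHFD-fed male replicate 1, 2 or 4. The cause was not tested.

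Library-size scaling turned 21 signs, of which Etfa (0.020) and Etfdh (0.00088) in WT males had been called. Among values with no call in the main fits it gave, in WT females, Slc25a20 0.25, Acad11 0.021, Hadha 0.28, Eci1 0.0065, Decr1 0.24, Acat1 0.31 and Pdk4 0.13. In Cyp2b-null females it gave Slc25a20 0.015, Acadl 0.18, Hadha 0.16, Eci1 0.11, Decr1 0.23 and Pdk4 0.22. In WT males the values were Hadha 0.22, Decr1 0.15 and Acat1 0.073, and in Cyp2b-null males Acadl 0.36, Hadha 0.12 and Crot 0.26. Of these turned values, only Acadl in Cyp2b-null males passed under library-size scaling (adjusted p = 0.03 in edgeR's test). Acadl in Cyp2b-null males, at -0.00, was 0.0089 with DESeq2, 0.0083 with RLE, 0.023 with only the groups compared and 0.0046 without the 2 libraries absent from the heat maps, which put Pdk4 in Cyp2b-null females at 0.18. Without 1 library, signs turned for uncalled values in WT females (Slc25a20 -0.19 to 0.15, Acadl -0.031 to 0.19, Hadha -0.15 to 0.12, Acat1 -0.070 to 0.11, Pdk4 -0.67 to 0.16, Crot -0.066 to 0.38). The same held in Cyp2b-null females (Hadha -0.17 to 0.028, Eci1 -0.31 to 0.018, Decr1 -0.13 to 0.060, Pdk4 -0.47 to 0.45, Crot -0.061 to 0.27) and in males (Crot in WT -0.034 to 0.12, Acadl in Cyp2b-null -0.059 to 0.042).

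With the replicate block, 7 fell and 4 rose in WT females, 9 and 3 in Cyp2b-null females, 17 and 3 in WT males, and 18 and 3 in Cyp2b-null males, and 10 differed between WT males and females. Not every library correlated best with its own number in any comparison.

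Depth limits the members read at few counts: the lowest value was 0.757 CPM, for Acot3 in a CDAHFD-fed WT male, and the male diet differences of Acot3 had SEs of 0.73 and 0.72.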
